A study of Mus musculus with 2 samples.

Results

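Among 8090 barcodes of CD45+ tumor cells, 102 met a rule for CD4+ T cells without Foxp3 RNA, and these 102 barcodes are called the CD4+Foxp3- gate. A barcode stands for 1 droplet and usually 1 cell, and its RNA is counted in UMIs (unique molecular identifiers, 1 per captured molecule). Members had at least 1000 UMIs, at most 25% mitochondrial UMIs, at least 1 UMI of Cd3d or Cd3g (parts of the CD3 complex of T cells), at least 1 UMI of Cd4 (the co-receptor of helper T cells), none of Foxp3 (the defining factor of regulatory T cells), none of Cd8a or Cd8b1, and at most 5 UMIs of the macrophage genes C1qa, C1qb and C1qc. The 8090 barcodes are those that passed the UMI and mitochondrial limits, 4679 in Control and 3411 in IR, and the gate took 52 of the former and 50 of the latter. Cd3d, Cd3g, Cd4, Foxp3, Cd8a, Cd8b1 and the C1q genes thus chose the members: barcodes were selected on their measured UMIs, and the levels of these genes are not read as findings.

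MC38, a colon carcinoma line of the mouse, was grown in wild-type (WT) animals. One library held untreated tumors (Control) and the other tumors that had received one 20 Gy dose of irradiation (IR) 4 days earlier. The methods give 4 pooled tumors for each library and a sort of live CD45+ cells, while the sample labels name the cell type as CD45+CD11b+Ly6Chi, a myeloid gate that would hold no T cells. With 1 library per group no test was possible, so every difference below compares 2 libraries and has no replicate check. The 95% intervals are exact (Poisson for levels, Clopper-Pearson for shares, conditional binomial for ratios), cover counting error only, and were not adjusted for the number of genes.

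CD4+ helper T cells recognise peptides on MHC class II through the T cell receptor, and they act on other immune cells through CD40 ligand and secreted cytokines. Their subsets are marked by lineage factors and cytokines: Tbx21 with Ifng for Th1, Gata3 with Il4 and Il13 for Th2, Il17a for Th17 and Bcl6 with Cxcr5 for follicular helper cells. Resting and recirculating T cells keep Klf2 and Ccr7, while cells activated in a tumor lose them and carry costimulatory and inhibitory receptors such as Icos, Tnfrsf4 and Ctla4.

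The gate was a small share of the T cells in both libraries. It made up 8.47% of the 614 Control barcodes with Cd3d or Cd3g and at most 5 C1q UMIs (6.39% to 10.96%), and 9.43% of the 530 such IR barcodes (7.08% to 12.2%). The IR to Control ratio of 1.11 had an interval of 0.769 to 1.61, so no difference was detectable at this depth. Of all barcodes the gate was 1.11% in Control and 1.47% in IR, a ratio of 1.32 (0.897 to 1.94). Most CD3 barcodes fell elsewhere: 224 Control and 174 IR barcodes had Cd8a or Cd8b1 without Cd4 or Foxp3 (the CD8 gate), 52 and 27 had Foxp3 (the Foxp3 gate), and 270 and 261 had none of these genes. No barcode sequence in the gate was shared between the libraries, and 6 were shared among the 8090.

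Many members carried RNA of another lineage, and they were far more of the IR members than of the Control members. Members held 1021 to 24423 UMIs in Control (median 3763.5) and 1045 to 39647 in IR (median 7145.5). At least 3 UMIs of 7 myeloid genes (Lyz2, Csf1r, Aif1, Mpeg1, Ms4a7, Adgre1 and Cd68) were found in 12 of 52 Control and 25 of 50 IR members, with up to 317 and 394 such UMIs in 1 member. Over 10 UMIs of 4 MHC class II genes (H2-Aa, H2-Ab1, H2-Eb1 and Cd74), which mark antigen-presenting cells, were found in 8 and 23 members. Members with neither are called restricted members: 39 in Control (median 3458 UMIs) and 21 in IR (median 4574 UMIs), with 141184 and 139661 UMIs in all. Over 10000 UMIs were held by 0 of these Control and 4 of these IR members, with maxima of 9700 and 24579. Summed levels of restricted IR members thus rest more on a few deep members. The members set aside were 25% of the Control gate (14.03% to 38.9%) and 58.0% of the IR gate (43.2% to 71.8%), and they were deeper, with medians of 7757 and 9018 UMIs. Since the cut counts UMIs, a deep member is more likely to be set aside than a shallow one. Restricted members were 9.56% of the CD3 barcodes restricted in the same way in Control and 7.53% in IR, a ratio of 0.787 (0.474 to 1.31), below 1 where the whole gate lay above it, with both intervals including 1.

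**Figure D1:**
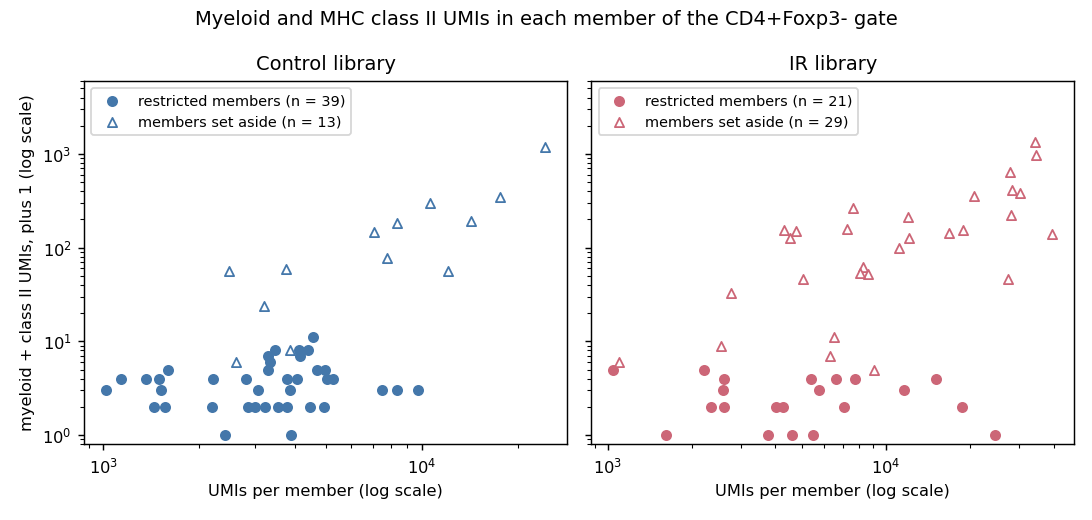
Each point is 1 member of the gate, with its UMIs on the x axis and its summed UMIs of 7 myeloid and 4 MHC class II genes plus 1 on the y axis, both on log scales. The 13 Control and 29 IR members set aside (open triangles) reach the highest totals, and the 39 Control and 21 IR restricted members (filled circles) stay low on the y axis.

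The rule itself does not tell these members from other cells with certainty. Among barcodes with over 50 C1q UMIs, which are macrophages by those genes, 22.8% in Control and 26.6% in IR had a Cd3d or Cd3g UMI, and 6.28% and 6.49% had a Cd4 UMI. Natural killer barcodes (Ncr1 present, no Cd3d or Cd3g) had Cd4 in 2 of 229 in Control, or 0.873%, and in 0 of 257 in IR. Exactly 1 Cd4 UMI was all that 18 Control and 16 IR members had, and exactly 1 CD3 UMI all that 1 and 5 had. Control members held at most 1 C1q UMI except for 1 with 5, and in IR 8 members held 2 to 5, while 4 barcodes in each library were kept out with 6 to 10. The edge of the other limits was thinly filled: 2 members in each library had under 1200 UMIs, 2 Control and 1 IR members had over 20% mitochondrial UMIs, 1 Control barcode was just outside with 800 to 999 UMIs, and 1 IR barcode just outside with 25% to 30% mitochondrial UMIs.

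By Trac and Cd3e, which the rule did not use, the T cell label held for most restricted members. The absence of Foxp3 could not be shown. Trac, the constant part of the T cell receptor alpha chain, was found in 84.6% of restricted Control and 100% of restricted IR members, against 7.86% and 15.95% of natural killer barcodes and 2.93% and 2.65% of C1q macrophages. Thinned to 1000 UMIs each, the restricted members had Trac in 59.0% and 61.9% and natural killer barcodes in 2.18% and 2.33%. Cd3e was found in 92.3% and 76.2% of restricted members and in 0% and 0.389% of natural killer barcodes, whose median depth was higher (7842 and 9903 UMIs). Other T cell genes separated these groups less or not at all. Trbc2 was found in 69.2% and 95.2% of restricted members and in 51.97% and 49.8% of natural killer barcodes. For Cd28 the shares were 82.05% and 80.95% against 53.7% and 46.3%. For Ptprcap they were 87.2% and 66.7% against 89.5% and 86.4%. The label thus rests on Trac and Cd3e. In the restricted barcodes of the Foxp3 gate, thinning to 1000 UMIs kept a Foxp3 UMI in 21 of 35 Control and 3 of 9 IR barcodes, so a Foxp3 count of 0 in a shallow member does not show that the gene was off. The restricted members also held natural killer receptor and adaptor RNA, with Klrd1 at 638 CPM in Control and 523 in IR and Tyrobp at 340 and 544 CPM (CPM, a gene's UMIs per 1000000 summed UMIs of the members). The group is therefore named by its rule, and each result is given for all members and for restricted members.

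Gene levels were summed over members per library and compared as CPM. A gene was tested if it had at least 20 UMIs over both libraries, and it was called higher or lower in IR if the log2 ratio of CPM plus 10 was at least 1 in size, the 95% interval of the ratio left out 1, and at least 5 members of the higher library had a UMI. By this rule 244 of 5216 genes, or 4.68%, were called higher in IR and 130, or 2.49%, lower. Among restricted members 51 of 2146 genes, or 2.38%, were called higher and 84, or 3.91%, lower. Only 8 genes were called higher in both sets, which is 8 of 244 and 8 of 51, and 26 were called lower in both, 26 of 130 and 26 of 84. Most of the gate's calls could not be read without the members set aside, since 205 of the 244 and 78 of the 130 had under 20 UMIs in restricted members. Of the rest, 8 higher and 1 lower calls had the opposite sign there.

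Of the 34 gene lists described, the interferon list had the most genes called higher in IR. These genes are switched on by type I or type II interferon, and many have an interferon-stimulated response element near their start. The letters GAAANNGAA, or TTCNNTTTC on the other strand, were searched in the 300 bases around each RefSeq gene start (250 before, 50 after, GRCm38.p6). They were found in 2317 of 27025 promoters (8.57%), in 23 of the 36 promoters available for the 47 genes of the interferon list (63.9%), and in 13 of 17 for list genes called higher in the gate (76.5%). The list was made of known interferon genes, and the 17 were taken by their call in these data. These shares therefore describe the list and are no support for a response in the gate. The stretches of Isg15, Ifit1, Ifit3 and Bst2 are shown as examples with more than 1 match, not as typical of the list. Matched letters are in capitals, and each stretch is read 5′ to 3′ on the gene's strand.
Isg15 (chr4:156200861-156200911, minus strand): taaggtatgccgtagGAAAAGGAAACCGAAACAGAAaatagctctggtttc
Ifit1 (chr19:34640765-34640828, plus strand): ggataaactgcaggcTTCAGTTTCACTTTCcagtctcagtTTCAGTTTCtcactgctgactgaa
Ifit3 (chr19:34583359-34583450, plus strand): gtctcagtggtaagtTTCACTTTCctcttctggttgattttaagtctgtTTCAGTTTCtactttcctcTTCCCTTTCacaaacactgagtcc
Bst2 (chr8:71537573-71537617, minus strand): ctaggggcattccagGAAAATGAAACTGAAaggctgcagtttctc
Isg15, Ifit1 and Ifit3 each held 3 matches and Bst2 held 2, some of them overlapping. The window of Irf7 held none and that of Rsad2 held 1. A match is a description of letters and was not tested as a binding site.

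Over all members, 23 of the 45 interferon genes tested were called higher in IR, beside 4.68% of all genes, and none lower. Their median log2 ratio was 1.30, beside -0.01 over all 5216 genes. The median was the same with the 2 genes at 0 in Control set at their lower bound. Over restricted members none of the 15 genes with enough UMIs was called either way, and their median was 0.16 beside 0.01 over 2146 genes. The calls over all members were thus not made in restricted members, where most of the list fell under the minimum of UMIs.

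Isg15, a ubiquitin-like protein attached to others during the interferon response (chromosome 4, 156199424 to 156200818), had 15 UMIs in 10 Control members and 238 in 30 IR members. Its level was 57.9 CPM in Control and 419 CPM in IR, a ratio of 7.23 (4.30 to 13.1). In restricted members it had 11 and 22 UMIs, or 77.9 and 158 CPM, a ratio of 2.02 with an interval of 0.940 to 4.62 that included 1. Isg15 was therefore called over all members and not over restricted ones.

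Irf7, a transcription factor that amplifies the response (chromosome 7, 141262706 to 141266481), went from 9 UMIs in 6 members to 168 in 34, or from 34.7 to 296 CPM, a ratio of 8.51 (4.38 to 18.9). Restricted members had 3 UMIs in 3 of 39 Control and 16 in 10 of 21 IR members, a ratio of 5.39 (1.54 to 28.9), with 19 UMIs in all and so just under the minimum for a call. Free RNA in the droplets, at the share gauged from 9 myeloid genes, would supply 0.528 and 1.99 of those UMIs. The cut for restricted members used 7 of these 9 genes, so that share was low by selection and sets no limit on free RNA. Thinned to 1000 UMIs, Irf7 was found in 2.56% and 19.0% of restricted members.

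Zbp1, a sensor of Z-form nucleic acid, had 8 and 97 UMIs, a ratio of 5.53 (2.70 to 13.2), and 2 and 15 in restricted members, a ratio of 7.58 (1.76 to 68.3). The antiviral protein Ifit1 had 1 UMI in Control and 43 in 19 IR members, a ratio of 19.6 (3.34 to 792), and 1 and 9 in restricted members, a ratio of 9.10 (1.26 to 399). Ifit3 had no UMI in Control and 29 in IR, so it was at least 4.41-fold higher in IR against a floor of 3 UMIs, and restricted members held 0 and 3. For these genes the restricted members pointed the same way on few molecules.

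Rsad2, which makes an antiviral nucleotide, had 1 UMI in Control and 98 in 15 IR members, a ratio of 44.7 (7.83 to 1782), and restricted members held 0 and 2. Bst2, the membrane protein tetherin, had 32 and 269 UMIs, a ratio of 3.83 (2.65 to 5.72), and a ratio of 1.81 (0.903 to 3.76) in restricted members. Ifi27l2a, with 191 and 1295 UMIs, had a ratio of 3.09 (2.65 to 3.62) over all members and 1.28 (0.967 to 1.69) over restricted ones. The other called genes of the list were Stat2, Usp18, Oasl2, Rtp4, Xaf1, Gbp5, Iigp1, Ifi206, Ifi213, Slfn1, Slfn5, Phf11b, Trim30a, Parp14 and Ifih1, with ratios from 2.71 for Trim30a to 11.9 for Ifi206 and a lower bound of 3.80 for Usp18, which had no UMI in Control.

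Summed over the 23 called genes, the interferon level was 1316 CPM in the Control gate and 5219 CPM in the IR gate. Restricted members held 1091 CPM (925 to 1277) and 2012 CPM (1784 to 2262), and members set aside 1585 and 6263 CPM. The same sum in C1q macrophages without CD3 UMIs was 1632 and 6108 CPM, and in droplets of 10 to 100 UMIs, which hold free RNA, 2071 and 5485 CPM. The interval of the members set aside included the macrophage level in both libraries (1366 to 1829 in Control and 6028 to 6505 in IR), and it lay below the level of free RNA in Control and above it in IR. Restricted members lay below all of these, and the part of macrophage or free RNA in the gate's values was not tested. Per member, the 23 genes took 0 to 9.11 of every 1000 UMIs in restricted Control members (median 0.735) and 0.426 to 6.50 in restricted IR members (median 1.81). In members set aside they took 0.170 to 5.25 (median 2.07) and 0 to 19.1 (median 5.47). The ranges overlapped in both pairs. After thinning to 1000 UMIs, 53.8% of restricted Control and 81.0% of restricted IR members had a UMI of any of these genes, and the shares were 32.8% and 59.1% in natural killer barcodes and 67.2% and 91.6% in C1q macrophages. Since the 23 genes were chosen for their difference between these libraries, these values describe them and are no separate support.

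**Figure D2:**
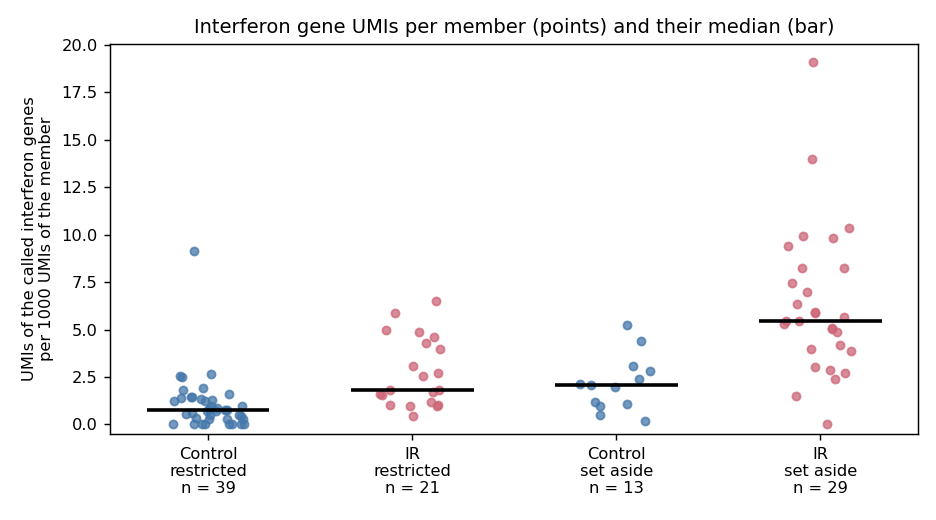
Each point is 1 member, and the y axis is the UMIs of the 23 interferon genes called higher in IR per 1000 UMIs of that member, with the median as a bar. The medians are 0.735 in restricted Control, 1.81 in restricted IR, 2.07 in set aside Control and 5.47 in set aside IR members, and the points of the groups overlap.

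Genes of resting and recirculating T cells had few UMIs, and Klf2 stood out among them. Of 8 naive and memory genes tested, 2 were called higher and none lower (median log2 ratio 0.38), and of 3 tested in restricted members 1 was called higher (median 0.78). The share of all genes called higher was 4.68%, and 2.38% in restricted members. Klf2, a factor that keeps T cells quiescent and recirculating (chromosome 8, 72319033 to 72321656), had 14 UMIs in 10 Control members and 158 in 35 IR members, or 54.0 and 278 CPM, a ratio of 5.15 (2.98 to 9.63). Restricted members had 9 UMIs in 6 and 38 in 9, or 63.7 and 272 CPM, a ratio of 4.27 (2.03 to 10.0). Klf2 was called higher in both sets, also without the member that held the most Klf2 UMIs in each library. A Klf2 UMI was also found in 29.7% and 38.9% of natural killer barcodes, and the restricted shares of 15.4% and 42.9% were 7.69% and 14.3% after thinning. In restricted CD8 barcodes Klf2 stood at 85.8 CPM in Control and 65.3 CPM in IR.

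Ccr7, the lymph node homing receptor of naive T cells and mature dendritic cells (chromosome 11, 99144196 to 99155077), had 8 and 129 UMIs, a ratio of 7.35 (3.62 to 17.4), but 93 of the IR UMIs lay in 2 members. Restricted members held 2 and 15. Tcf7, a factor of naive and stem-like T cells, had 1 and 7 UMIs in restricted members, a ratio of 7.08 with an interval of 0.909 to 319. Il7r, the survival cytokine receptor of resting T cells, had 20 UMIs in each library there, a ratio of 1.01 (0.516 to 1.98). With that interval including 1, no direction could be read for Il7r in restricted members. Among 16 trafficking receptors tested Ccr7 and Cxcr6 were the calls over all members, and the monocyte and T cell receptor Ccr2 was called lower in restricted members, with 32 and 12 UMIs. Ifngr2, a chain of the interferon gamma receptor, was called higher among 16 cytokine receptors over all members. It had 2 and 34 UMIs and a ratio of 7.75 (1.99 to 66.6), and it was not called in restricted members. Il1r2, the decoy receptor of interleukin-1, was called higher in restricted members with 49 and 119 UMIs, 84 of them in 1 IR member.

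Cdkn1a, the cell cycle inhibitor p21 and a p53 target, was the one p53 gene called. It had 43 and 359 UMIs, or 166 and 631 CPM, a ratio of 3.81 (2.77 to 5.35), and 12 and 33 UMIs in restricted members, or 85.0 and 236 CPM, a ratio of 2.78 (1.40 to 5.91). The other 10 p53 genes tested were not called, and the list's median log2 ratio was 0.34 over all and 0.01 over restricted members. Bcl2l1, which encodes the survival protein Bcl-xL (chromosome 2, 152780668 to 152831728), was called higher in both sets, with ratios of 2.28 (1.18 to 4.83) and 5.56 (1.89 to 22.2). It was the one apoptosis gene called of 14 tested, and it was not called in either set without its leading member, which held 9 of its IR UMIs.

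Of 17 T cell identity genes tested, 1 was called lower in IR in each set, beside 2.49% and 3.91% of all genes, and none higher. Log2 ratios were below 0 for 16 over all members (median -0.63), beside 2653 of all 5216 genes, and for 11 over restricted members (median -0.22), beside 1050 of 2146. The gene called was Ptprcap, a partner of the phosphatase CD45 in lymphocytes (chromosome 19, 4153604 to 4156751). It had 127 UMIs in 40 Control members and 88 in 31 IR members, or 490 and 155 CPM, a ratio of 0.316 (0.238 to 0.418). In restricted members it stood at 793 and 243 CPM, a ratio of 0.307 (0.203 to 0.454). Trac itself was at 1048 CPM in restricted Control and 702 CPM in restricted IR members, a ratio of 0.669 (0.513 to 0.870), not called. The summed CPM of the 17 genes was 7103 and 4568 over all members, and 9930 and 8564 over restricted members. The share of myeloid UMIs moved with this difference, and its part was not tested.

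Of the helper genes, the CD40 ligand Cd40lg, which licenses antigen-presenting cells, set the gate apart from CD8 and natural killer barcodes before thinning. It had 15 UMIs in Control and 11 in IR, a ratio of 0.334 (0.139 to 0.779), and 13 and 7 in restricted members, a ratio of 0.544 (0.184 to 1.47), called lower over all members and not called over restricted ones. A Cd40lg UMI was found in 23.1% and 23.8% of restricted members, against 1.34% and 0.990% of restricted CD8 barcodes and in no natural killer barcode. Zbtb7b, the factor that commits T cells to the helper lineage, had 11 and 9 UMIs in restricted members (ratio 0.827, 0.303 to 2.20). Tox, a factor of T cell development and exhaustion, was called lower over all members with 19 and 13 UMIs, a ratio of 0.312 (0.142 to 0.666), and restricted members held 14 and 3.

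Genes of Th1 cells went different ways. Of 14 tested, 2 were called higher and 3 lower over all members (median log2 ratio -0.24), and none higher and 2 lower over restricted ones (median -0.53). Among all genes 4.68% were called higher and 2.49% lower, and 2.38% and 3.91% over restricted members. Cxcr6, a chemokine receptor of tissue-resident T cells, had 126 UMIs in 37 Control members and 108 in 31 IR members, or 486 and 190 CPM, a ratio of 0.391 (0.299 to 0.509). Restricted members held 744 and 286 CPM, a ratio of 0.385 (0.261 to 0.559), with a UMI in 76.9% and 47.6% of members, and in 48.7% and 14.3% after thinning. Restricted CD8 barcodes had Cxcr6 at 401 and 445 CPM, and 75.8% and 76.2% of them had a UMI. Cxcr6 was called lower in both sets of the gate, also without the leading member.

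Il18r1, a chain of the interleukin-18 receptor, was called lower in both sets as well, with ratios of 0.413 (0.261 to 0.653) and 0.424 (0.204 to 0.834). Its partner Il18rap had ratios of 0.440 (0.252 to 0.767) and 0.689 (0.333 to 1.39), called over all members and not over restricted ones. Tbx21, the defining factor of the list, had 14 and 9 UMIs in restricted members, a ratio of 0.650 (0.248 to 1.61). Ifng, the Th1 cytokine, had 58 and 110 UMIs over all members, with 62 of the IR UMIs in 1 member, and its log2 ratio was -1.08 without the leading member of each library. Of the 2 Th1 genes called higher, Tnf had a ratio of 3.52 (1.87 to 7.32) over all and 2.36 (0.852 to 7.49) over restricted members. Ly6c2, which monocytes also carry, had 2.87 (2.25 to 3.71) and turned to 0.548 (0.256 to 1.12) in restricted members.

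Genes of the other helper lineages were present, with no call in either set. Summed over restricted members, the Th17 list held 167 UMIs in Control and 160 in IR, the follicular helper list 147 and 145, and the Th2 list 118 and 52. All 23 Il17a UMIs lay in 1 IR member. Bcl6 had 1 UMI in each library among restricted members, and Cxcr5 0 and 1. Il13 had 24 and 4 UMIs there, 22 of them in 1 Control member, and Gata3 had 26 and 14 (ratio 0.544, 0.263 to 1.08). No gene of the Th2, Th17 or follicular helper lists was called in either set, out of 4, 4 and 5 genes tested over all members and 3 each over restricted members.

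Secreted factors and membrane ligands had more genes called lower in IR over all members than any other list. Of 16 cytokine and ligand genes tested, 6 were called lower and 2 higher (median log2 ratio -0.89), and of 15 tested in restricted members 3 were called lower and 1 higher (median -0.44). Among all genes 2.49% were called lower and 4.68% higher, and 3.91% and 2.38% in restricted members. Ccl1, a chemokine that attracts Ccr8-bearing T cells (chromosome 11, 82176657 to 82305690), had 138 UMIs in 8 Control members and 4 in 3 IR members, a ratio of 0.0132 (0.00355 to 0.0346). Of the Control UMIs 130 lay in 2 members, both restricted, where the counts were 135 and 3. Csf2, which encodes the myeloid growth factor GM-CSF (chromosome 11, 54247271 to 54249667), had 26 and 23 UMIs, a ratio of 0.403 (0.220 to 0.735), and 23 and 3 in restricted members, a ratio of 0.132 (0.0253 to 0.436). In restricted members Csf2 was not called without its leading member.

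Ltb, which encodes the membrane lymphotoxin beta chain, was spread over more members than these. It had 126 UMIs in 41 Control members and 95 in 32 IR members, or 486 and 167 CPM, a ratio of 0.344 (0.261 to 0.452), and a ratio of 0.467 (0.324 to 0.663) in restricted members. Csf1, the macrophage growth factor, had ratios of 0.352 (0.205 to 0.598) and 0.490 (0.252 to 0.916), the latter not called on the scale with 10 CPM added. Areg, an epidermal growth factor receptor ligand, had 89 and 80 UMIs, a ratio of 0.410 (0.299 to 0.561), of which 49 lay in 1 Control member, and it was not called without its leading member. Ccl5, a chemokine of effector T cells, was called higher with a ratio of 2.65 (1.9604 to 3.64), but 165 of its 296 IR UMIs lay in 1 member, and in restricted members its level was 227 and 165 CPM. Lta, the soluble lymphotoxin, was called higher in restricted members, with 8 and 22 UMIs, 15 of them in 1 IR member.

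**Figure D3:**
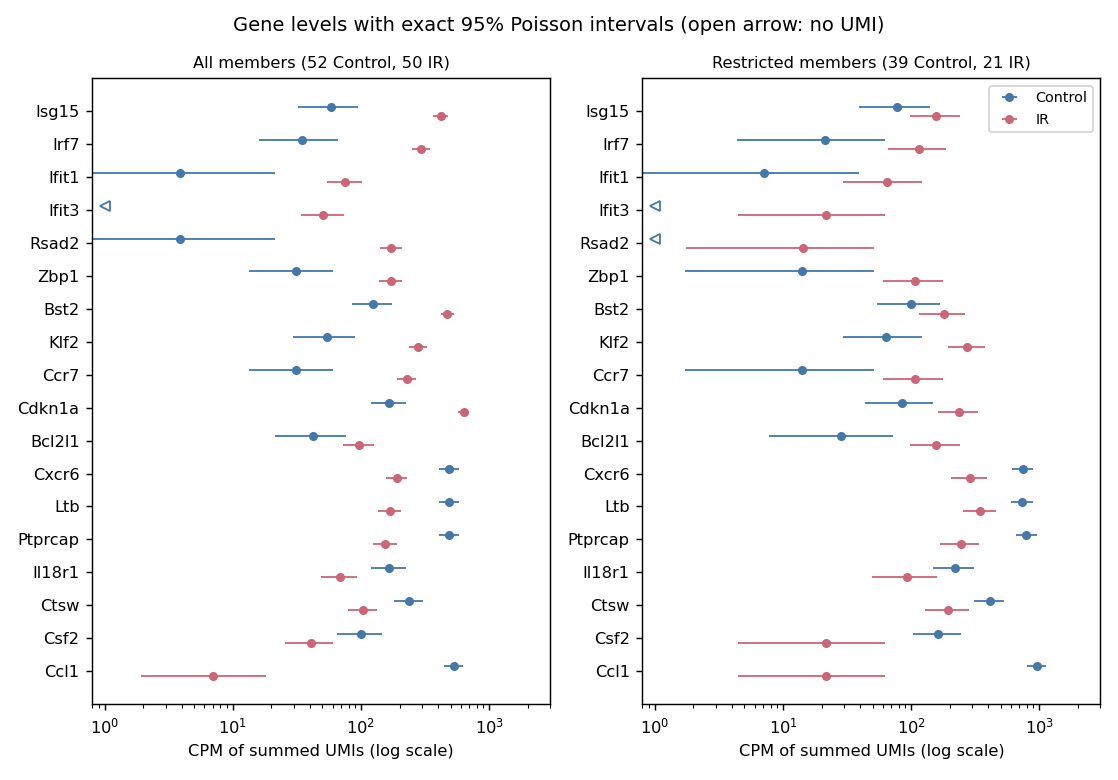
Points are CPM of summed UMIs on a log scale with exact 95% Poisson intervals, Control in blue and IR in red, for all members on the left and restricted members on the right, and an open arrow marks a gene with no UMI. Interferon genes such as Isg15 and Bst2 lie farther apart on the left than on the right, while Klf2, Cdkn1a, Cxcr6, Ltb and Ptprcap keep their separation on the right.

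Activation and regulatory genes had medians below 0 and were mostly not called, and both medians turned above 0 with members thinned to 1000 UMIs (0.028 and 0.13). Of 13 activation and costimulation genes tested, 2 were called lower and none higher (median log2 ratio -0.61), and of 12 tested in restricted members 1 was called lower (median -0.21). The share of all genes called lower was 2.49%, and 3.91% in restricted members. The costimulatory receptors Icos, Tnfrsf4 (OX40) and Tnfrsf18 (GITR) had restricted ratios of 0.829 (0.60 to 1.14), 0.945 (0.725 to 1.23) and 0.899 (0.703 to 1.15). Cd27, another receptor of that family, was called lower over all members, with 23 and 14 UMIs and a ratio of 0.278 (0.132 to 0.563), and restricted members held 14 and 5. Tox was also the one inhibitory receptor list gene called of 8 over all members, and Lag3, an inhibitory receptor that binds class II, was called lower in restricted members, with 51 and 24 UMIs. Tnfrsf1b, the second receptor of tumor necrosis factor, was called lower in restricted members, with 21 and 6 UMIs.

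Of 14 regulatory T cell genes tested, Ikzf4 and Areg were called lower over all members (median -0.66). Of 11 tested in restricted members, Nrp1 was called lower and Ebi3, a subunit of 2 cytokines of regulatory cells, higher (median -0.27). Among all genes 2.49% were called lower over all members, and in restricted members 3.91% lower and 2.38% higher. Il2ra, the high-affinity interleukin-2 receptor, had 234 and 143 CPM in restricted members, a ratio of 0.613 (0.333 to 1.10). Ctla4 UMIs were found in 66.7% and 81.0% of restricted members and also in 49.3% and 40.1% of natural killer barcodes, and after thinning in 41.0% and 47.6% against 9.61% and 7.78%.

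Cytotoxic genes had few calls, and single members carried most of them. Of 14 tested, 3 were called higher and 1 lower (median log2 ratio 0.31), and in restricted members Gzmb was called higher and Ctsw lower (median -0.04). Among all genes 4.68% were called higher and 2.49% lower, and 2.38% and 3.91% in restricted members. The median over all members turned to -0.60 without members of over 10000 UMIs. Gzma, a granzyme, had no UMI in Control and 126 in 7 IR members, at least 19.1-fold higher, and 113 of these lay in 2 members. Prf1, the pore-forming protein perforin, had 7 and 90 UMIs, a ratio of 5.86 (2.73 to 15), with 40 in 1 IR member. Only 2 restricted members of each library held a Prf1 UMI, too few for a call. Of the 136 Gzmb UMIs in restricted IR members 91 lay in 1 member. Ctsw, a protease of cytotoxic lymphocytes, was called lower in both sets, with ratios of 0.441 (0.303 to 0.641) and 0.471 (0.287 to 0.755), and kept that call without its leading member.

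Immediate early genes, which respond within minutes to receptor signals and to tissue handling, differed between the sets of members in the direction of most calls. Over all members Jun, Egr1 and Zfp36 were called higher of 15 tested (median log2 ratio 0.14), with ratios of 2.34 (1.47 to 3.88), 2.47 (1.54 to 4.15) and 2.20 (1.74 to 2.81). Over restricted members 3 of 14 were called lower and Jun higher (median -0.24). Among all genes 4.68% were called higher over all members, and over restricted ones 3.91% lower and 2.38% higher. Dusp1, a phosphatase that ends MAP kinase signals (chromosome 17, 26505590 to 26562128), had 85 UMIs in 24 and 20 in 8 restricted members, or 602 and 143 CPM, a ratio of 0.238 (0.138 to 0.391). The nuclear receptors Nr4a2 and Nr4a3, which report T cell receptor signalling, had restricted ratios of 0.383 (0.191 to 0.724) and 0.408 (0.234 to 0.690). These 3 kept the call without their leading members.

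Heat shock genes had log2 ratios above 0 in 11 of 11 tested over all members (median 0.25), beside 2563 of all 5216 genes. Over restricted members this was 10 of 10 (median 0.62), beside 1096 of 2146, and most of these genes were not called. The genes called higher were Hspa1a and Hspa1b, inducible chaperones, over all members, and the co-chaperone Dnajb1 over restricted ones. Of the 75 Hspa1b UMIs in IR, 55 lay in 1 member, and without leading members the restricted median was 0.24.

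Among cell cycle genes Mki67, Stmn1 and Pclaf were called lower of 15 tested (median -0.11), and without the leading member Mki67 and Pclaf were not. For these lists too the share of all genes called lower was 2.49%, and 3.91% in restricted members. Slc2a3, a glucose transporter, was the one glycolysis gene called of 17, lower with ratios of 0.304 (0.158 to 0.572) and 0.168 (0.0425 to 0.490). Of 21 T cell receptor signalling genes none was called over all members (median -0.31), and the adaptor Sla was called lower over restricted ones (ratio 0.473, 0.272 to 0.801). None of the 8 genes of m6A writing, reading or erasing with enough UMIs was called either (median -0.25), and Ythdf2, the m6A reader named in the title of the series, had 7 and 5 UMIs in restricted members (ratio 0.722, 0.181 to 2.64).

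**Figure D4:**
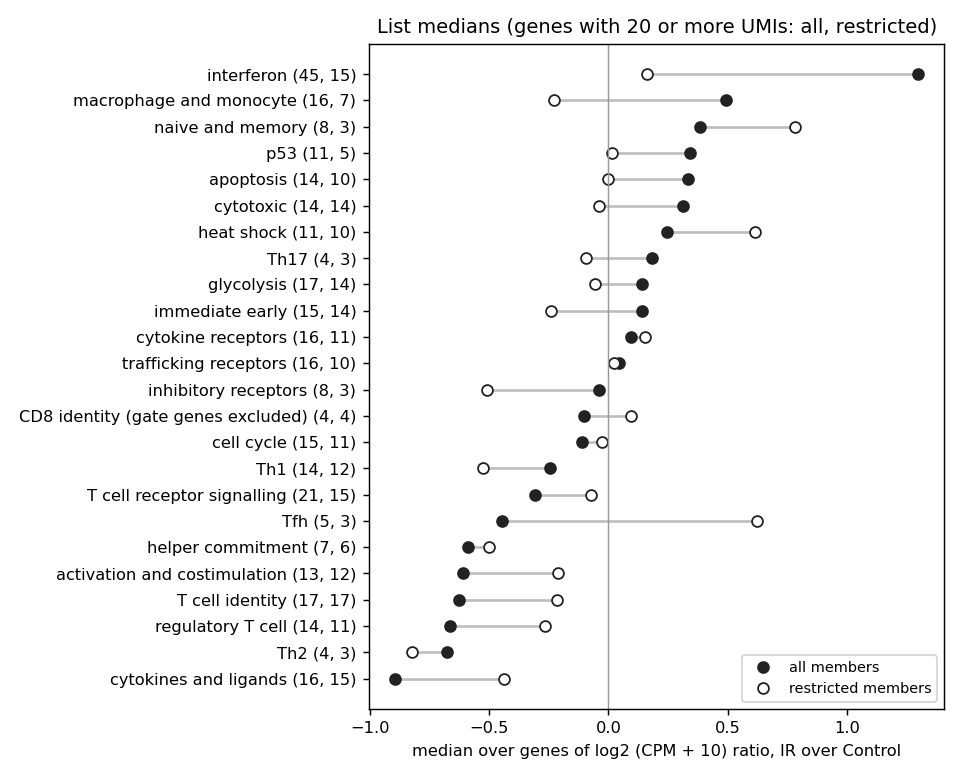
The x axis is the median over each list's genes of the log2 ratio of CPM plus 10, IR over Control, for all members (filled) and restricted members (open), with the number of genes tested in each set in parentheses. Of the lists plotted, the interferon list has the largest median over all members, 1.30, with 0.16 over restricted members, and the cytokine and ligand list has the lowest over all members, -0.89.

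Markers of other cell types moved with the gate as follows. The 17 macrophage and monocyte genes summed to 9186 CPM in the Control gate and 11113 in the IR gate. They summed to 2536 and 2456 CPM in restricted members, where Cd68 had 1 and 0 UMIs. The cut for restricted members used 7 of these genes, Cd68 among them, so their restricted levels were low by selection. Apoe, a lipid carrier of macrophages, was called lower over all members, with 145 and 70 UMIs, 105 of them in 1 Control member. The class II chaperone Cd74 was called lower in restricted members, with 61 and 14 UMIs. Since the cut for restricted members also counted Cd74, that call is not read as a finding. The 9 dendritic cell genes summed to 73.3 and 218 CPM, and to 21.2 and 14.3 CPM in restricted members, on 3 and 2 UMIs, and Itgax and Cd209a were called higher over all members. The neutrophil genes S100a8 and S100a9 had 0 and 128, and 1 and 181 UMIs, of which 119 and 177 lay in 1 IR member, and restricted members held no S100a8 UMI. B and plasma cell genes summed to 73.3 and 28.1 CPM and tumor and stromal genes to 131 and 42.2 CPM, with Lgals7 called lower. The 3 genes tested of the natural killer, gamma delta and NKT list and the 4 of the CD8 identity list were not called. Their part in the other results was not tested.

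Genes were also named by size of difference regardless of list. Before that 125 higher calls were left out, because free RNA at the gauged share would supply over 50% of their IR level. That share also counts myeloid RNA of the members themselves, so what free RNA supplied was not measured. Of the 12 so named as higher in IR, most had few or no UMIs in restricted members. The first of them was Ccl17, a chemokine of dendritic cells and macrophages (chromosome 8, 94810453 to 94812036), with no UMI in Control and 128 in 9 IR members, at least 19.5-fold higher, and no UMI in any restricted member. Acod1, which makes itaconate in activated macrophages, had 2 and 74 UMIs, a ratio of 16.9 (4.51 to 142), and 0 and 7 in restricted members. Inhba, a subunit of activin, had 6 and 88 UMIs and none in restricted members. Hdc, the enzyme that makes histamine, had 2 and 54 UMIs, 37 of them in 1 IR member.

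Atp7a, Stom, Slc15a4 and Zmynd15 had no UMI in Control and 24, 24, 22 and 21 in IR, and 0, 1, 2 and 0 in restricted IR members. Ifit2, an interferon gene outside the list, had 0 and 32 UMIs, at least 4.86-fold higher, with 0 and 2 in restricted members. Serpine2, a protease inhibitor (chromosome 1, 79794197 to 79861180), was the exception with 7 and 80 UMIs in restricted members, a ratio of 11.6 (5.36 to 29.7), but too few restricted members held it for a call. Over all members 106 of its 135 IR UMIs lay in 2 members.

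Of the 12 genes named for the largest differences toward Control, 6 were called in both sets: Ccl1, Nrgn, Igfbp7, Ramp1, Ptprcap and Abhd2. Before that naming 10 lower calls, Apoe among them, were left out by the same gauged share. Nrgn, a calmodulin-binding protein (chromosome 9, 37544492 to 37552904), had 87 UMIs in 19 Control members and 22 in 6 IR members, a ratio of 0.115 (0.0687 to 0.186), and 0.1995 (0.106 to 0.350) in restricted members. Igfbp7, a secreted binding protein of insulin-like growth factors (chromosome 5, 77349240 to 77408041), had ratios of 0.253 (0.163 to 0.389) and 0.243 (0.118 to 0.462). Ramp1, part of the receptor for the neuropeptide CGRP (chromosome 1, 91179822 to 91225196), had 0.281 (0.184 to 0.422) and 0.242 (0.113 to 0.474).

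Abhd2, a lipid hydrolase, had 27 and 16 UMIs, a ratio of 0.270 (0.136 to 0.520), and 0.225 (0.0553 to 0.682) in restricted members. Penk, the precursor of enkephalin peptides (chromosome 4, 4133531 to 4138819), had 151 and 45 UMIs, a ratio of 0.136 (0.0951 to 0.191), and turned to 1.17 (0.708 to 1.94) in restricted members. Of its 151 Control UMIs 84 lay in 1 member that was set aside. Ide, Nfkbil1, Crkl, Mgat5 and Igflr1 had ratios of 0.188 to 0.289 over all members, and none was called in restricted members, where Igflr1 alone had over 20 UMIs.

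Set beside the other T cell gates, restricted members of each, the CD4+Foxp3- gate held more RNA of several helper genes than the CD8 gate in both libraries. Cd40lg stood at 92.1 CPM in Control and 50.1 in IR in the CD4+Foxp3- gate, and at 2.17 and 1.28 in the CD8 gate. Tnfsf8, the CD30 ligand, had 156 and 165 CPM against 10.9 and 11.5. Areg had 248 and 129 CPM against 11.95 and 2.56. Maf, a factor of helper cytokine production, had 312 and 172 CPM against 4.35 and 16.6. In the Foxp3 gate Areg stood at 455 and 256 CPM and Maf at 694 and 1309 CPM, so neither was particular to the CD4+Foxp3- gate. Tnfsf11, the RANK ligand, had 290 and 344 CPM against 55.4 and 71.7, and 23.1 and 28.5 in the Foxp3 gate. Effector genes were lower than in the CD8 gate, with Ccl5 at 227 and 165 CPM against 2342 and 4056, and Gzmb at 482 and 974 CPM against 1166 and 3541.

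Against the Foxp3 gate, whose restricted members numbered 35 and 9, the gate had more Ifng (326 and 609 CPM against 38.5 and 0), more Cxcr6 (744 and 286 against 84.8 and 0) and more Tnfsf8 (against no UMI in either library). Of the 85 Ifng UMIs of restricted IR members, 62 lay in 1 member, the deepest with 24579 UMIs. The same member held 84 of the 119 Il1r2 and 56 of the 80 Serpine2 UMIs of that set. The gate had less Ikzf2, the regulatory T cell factor Helios (191 and 158 CPM against 1333 and 1423), less Il2ra (234 and 143 against 848 and 797) and less Ctla4 (666 and 465 against 2466 and 2390). Levels of Tnfrsf4 lay between the other gates, at 864 and 816 CPM, with 137 and 232 in the CD8 gate and 1996 and 2788 in the Foxp3 gate. The 23 interferon genes stood at 1091 and 2012 CPM in the CD4+Foxp3- gate, 481 and 2982 in the CD8 gate and 3545 and 14226 in the Foxp3 gate. These comparisons are within single libraries, and differences between gates were not tested.

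**Figure D5:**
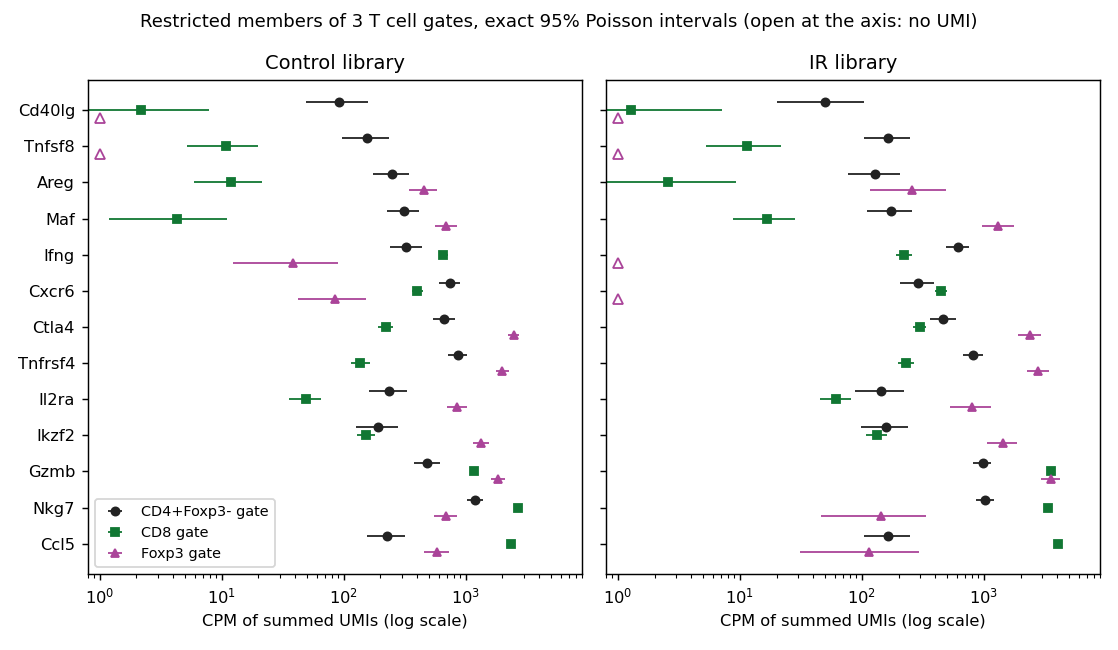
Points are CPM of summed UMIs on a log scale with exact 95% Poisson intervals in restricted members of the CD4+Foxp3- gate (black circles), the CD8 gate (green squares) and the Foxp3 gate (purple triangles), Control on the left and IR on the right, with open symbols for no UMI. Cd40lg, Tnfsf8 and Maf are far above the CD8 gate in both libraries, and Ikzf2, Il2ra and Ctla4 lie below the Foxp3 gate.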

How the data were processed

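Raw UMI counts of each gene in each barcode, as deposited by the authors, came in 1 unfiltered matrix per library from 10x Chromium 3′ v3.1 libraries. The submitters' processing notes and the methods name Cell Ranger 6.0.1 and the mm10 genome, while the matrix headers name Cell Ranger 4. No column was left unmapped. Counting could split reads between near-identical paralogs (Ifit, Ifi200, Gbp, granzyme and Hspa1 genes), whose values are uncertain to that extent.

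Barcodes were selected by the gate rule on raw UMIs. The 102 members held 259189 UMIs in Control and 568522 in IR, so 3 UMIs, the floor for a gene at 0, stood for 11.6 and 5.28 CPM. The cut for restricted members was set after the data were seen. The members, the rule and the 34 gene lists were chosen with earlier results of these data known. Intervals were computed with scipy 1.17.1. Droplets of 10 to 100 UMIs gave the free RNA profile. The CPM of 9 myeloid genes in the gate was 46.3% of that in these droplets in Control and 64.6% in IR (5.32% and 4.12% in restricted members). In members set aside it was 95.3% and 84.3%. Myeloid RNA of the members themselves counts in this share, and 7 of the 9 genes also set the cut for restricted members. The share is therefore not a measure of free RNA alone. Genes named by size were the 12 largest log2 ratios in each direction among called genes, together with called genes of the lists. Left out by size were genes for which free RNA, at that gauged share, would supply over 50% of the higher level. That removed 125 higher and 10 lower calls. Genes named for restricted members alone and uncalled genes were chosen after their values were seen. The comparison with the CD8 and Foxp3 gates drew on the 15 largest ratios in each direction and on list genes. The rule for calls was tested on simulated data in which all members of a library had the same rate for a gene. Members did not differ there except in depth and counting error. That simulation therefore does not bear on calls carried by single members.

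Doublets were not removed in the main values. As an alternative, the barcodes in the top 6% by Scrublet (run in scanpy 1.11.5) were left out, and DoubletFinder, named in the methods, was not used here. TMM scaling used edgeR 4.0.16 (R 4.3.3). Other alternatives changed the gate limits, depth, pseudocount, minimum UMIs, weights of members and treatment of free RNA. Gene positions are from GENCODE vM21 on GRCm38 (mm10), and promoter sequences from RefSeq on GRCm38.p6. The values of 2 genes of the lists are not reported here.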

Additional observations from a re-analysis of the deposited data

Results flagged for a closer look

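Barcodes that met every limit of the gate except the one on C1q were not used in the comparisons, and they carried an interferon signal. There were 59 in Control and 30 in IR, with median depths of 13339 and 17505 UMIs. The 47 interferon genes summed to 9633 CPM in Control (9424 to 9845) and 17956 CPM in IR (17622 to 18295). The values are given with no explanation, and what these barcodes hold was not tested.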

How the results depend on the processing

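No paired analysis was possible because each group had a single library. Of 208 alternative values, 168 stayed within the range set for their result, 29 lay outside it and 11 reversed the direction. A value within its range could still lie far from the main one, so the 168 do not measure robustness. For the interferon list 1 value lay outside its range and 1 reversed, while its median was 1.30 over all and 0.16 over restricted members. The ratio of shares of T cell barcodes and the Th1 median stayed within range under every alternative run. The settings on restricted members, on the share of myeloid UMIs, on members of at most 10000 UMIs and on leading members were chosen after seeing the data. The ratio of shares of all barcodes was 0.857 with fewer than 3 myeloid UMIs, 0.739 in restricted members and 0.720 with the gate applied after thinning to 1000 UMIs. The 244 genes called higher became 152 with Cd4 of at least 2, 66 with fewer than 3 myeloid UMIs, 51 in restricted members, 130 at no more than 10000 UMIs, 43 when thinned, 84 with a pseudocount of 50 CPM, 127 with at least 50 UMIs per gene and 444 with free RNA subtracted. The 130 called lower became 84 in restricted members, 25 when thinned, 15 with a pseudocount of 50 CPM, 234 with no minimum, 39 with at least 50 UMIs and 252 with free RNA subtracted. Restricted members gave 41 higher and 67 lower by the mean of per-cell CPM, and 43 and 62 at no more than 10000 UMIs. The interferon median was -0.050 by the per-cell mean of restricted members and 0.14 in restricted members of at most 10000 UMIs. The naive and memory median was 1.63 with fewer than 3 myeloid UMIs and 2.73 when thinned. The activation median was -0.062 at no more than 10000 UMIs, -0.10 when those were also restricted, and 0.028 when thinned. The regulatory median was -0.27 in restricted members, -0.10 at no more than 10000 UMIs, -0.24 when those were also restricted, and 0.13 when thinned. The cytotoxic median of 0.31 turned to -0.12 with no C1q UMI, -0.15 without the top 6% by Scrublet score, -0.087 with fewer than 3 myeloid UMIs, -0.040 in restricted members, -0.60 at no more than 10000 UMIs, -4.81 with free RNA subtracted, -0.21 by the per-cell mean of restricted members and -0.49 in restricted members of at most 10000 UMIs. The cause of these changes was not tested. Without the leading member of each gene 185 of the 244 and 91 of the 130 calls remained, and in restricted members 25 of 51 and 55 of 84. At 39 and 21 restricted members, a gene with no UMI could stand at up to 21.2 and 21.5 CPM.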
